A study of Mus musculus with 12 samples.

Results

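The genes described here are 10 transcripts of the conducting airway epithelium, measured in tumor cells sorted from mouse lungs. They were chosen by name as markers of club secretory cells (Scgb1a1, Scgb3a1, Scgb3a2, Cyp2f2, Cbr2, Aldh1a1, Wfdc2, Bpifa1 and Muc5b) and of ciliated cells (Foxj1), and all 10 were found among the 54146 genes of the table. Of these, 8 passed the filter for testing (at least 1 TPM in at least 3 libraries), and Muc5b and Foxj1 were listed at 0 in all 12 libraries.

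Club cells are the secretory cells of the small airways. They release secretoglobins into the airway lining fluid, carry cytochrome P450 and other enzymes that convert inhaled chemicals, and can act as progenitors for the airway lining. Ciliated cells move that fluid by beating motile cilia, whose program of genes is switched on by the forkhead factor Foxj1. The transcription factor Nkx2-1 acts in lung epithelium at secretoglobin and surfactant genes, and forkhead factors of the Foxa family act at several of the same genes.

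Libraries were made from D2A1 cells, a mouse mammary tumor line, that carried a histone-GFP reporter and the membrane dye CellVue Claret and had been injected into the tail vein. GFP-positive cells that had kept the dye were sorted from the lungs as dormant, and those that had lost it through division as growing. Hosts were labeled either WT, for which the methods also describe mice with the floxed Tgfbr2 allele, or as Tgfbr2 KO, in which floxed Tgfbr2 is deleted by Cre driven from the LysM (Lysozyme 2) promoter, active in myeloid cells. The deletion was thus made in the host and not in the injected cells, and the libraries formed 4 groups of 3, here called dormant WT, dormant KO, growing WT and, for dividing cells of KO hosts, growing KO. The labels give no age and name no animal for a library. The study describes the libraries as biological replicates, with as many mice per group as libraries, and whether dormant and growing libraries came from the same mice is not given in the sources used here.

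Every WT library analysed came from batch 1 and every KO library from batch 2, by the library names. The table also holds 6 columns named as WT of batch 2, which matched no labeled sample and were not used. Each host comparison made here is thus also a batch comparison and these cannot be told apart, whereas each comparison of dormant with growing cells within a host lay within 1 batch. TPM is a relative level per length of transcript that sums to the same total in every library, so the depth is unknown. The dormant WT libraries agreed least with each other (mean Pearson's r across tested genes 0.687, against 0.872 to 0.950 in the other groups) and had the fewest genes above 0 (11325 to 13242, against 13406 to 15315). The sorted cells were labeled as mammary tumor cells, and the simple-epithelium keratin Krt8 was between 52.1 and 381 TPM in the 12 libraries, whereas the epithelial adhesion gene Epcam was at most 5.34 TPM.

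Promoter sequences are shown for the members whose RefSeq record could be matched and whose upstream window does not lie within the annotated gene and holds a match, because a shared upstream motif is one property that the choice of members did not use. Promoters were matched for 6 of the 10 members and not for Scgb1a1, Scgb3a2, Muc5b or Foxj1. Both strands of the 250 bases before each RefSeq start (GRCm38.p6) were searched for the Nkx2-1 core TCAAG and for a forkhead core in any of 3 spellings, of which the first is TGTTTAC, the next is spelled TATTTAC, and the last is spelled TGTTTGC. No matches of the 2 motifs overlapped in these windows. The 6 members had 8 windows, since Wfdc2 (windows shifted by 1 base) and Aldh1a1 had 2 each. The Nkx2-1 core was found in 4 of the 8 windows, those of 4 members, against 35.9% of 32851 promoter windows of the same length. A forkhead core was found in 3 windows, against 9.73% of promoters, and both were found in those of Bpifa1 and Scgb3a1, against 3.7%. The remaining forkhead match lies in the second window of Aldh1a1, inside the annotated gene, and the upstream window of Aldh1a1 holds neither motif. The windows of Cyp2f2 and Cbr2 are cut where the GENCODE gene begins, and capitals mark the motif matches on either strand (on the opposite strand TCAAG reads as CTTGA). A match is a description of letters only, and binding was not measured.
Scgb3a1, chr11:49663345-49663594, plus strand: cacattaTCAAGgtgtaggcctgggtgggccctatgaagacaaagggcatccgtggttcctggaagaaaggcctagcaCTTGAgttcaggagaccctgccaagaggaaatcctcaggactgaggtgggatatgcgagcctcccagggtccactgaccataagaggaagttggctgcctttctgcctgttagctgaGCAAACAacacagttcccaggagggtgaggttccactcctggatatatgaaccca
Bpifa1, chr2:154142630-154142879, plus strand: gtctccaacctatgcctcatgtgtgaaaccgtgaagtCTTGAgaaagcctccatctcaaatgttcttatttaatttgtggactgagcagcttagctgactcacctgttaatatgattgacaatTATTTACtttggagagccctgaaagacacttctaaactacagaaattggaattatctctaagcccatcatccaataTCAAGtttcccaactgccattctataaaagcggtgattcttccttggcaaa
Cyp2f2, chr7:27119705-27119908, plus strand: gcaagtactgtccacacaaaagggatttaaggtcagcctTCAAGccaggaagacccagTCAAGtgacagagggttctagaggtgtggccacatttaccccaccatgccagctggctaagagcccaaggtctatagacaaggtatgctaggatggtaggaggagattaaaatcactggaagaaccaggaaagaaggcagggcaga
Cbr2, chr11:120732115-120732271, minus strand: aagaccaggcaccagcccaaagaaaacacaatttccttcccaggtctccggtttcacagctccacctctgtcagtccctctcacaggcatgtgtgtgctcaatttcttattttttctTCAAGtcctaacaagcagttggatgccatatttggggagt

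Between 4 and 8 of the 10 members were above 0 in each library, at very different levels. Dormant WT libraries summed to 173.3, 37.0 and 299.4 TPM over the members, dormant KO libraries to 3124, 2540 and 2305. Growing WT libraries summed to 375, 395 and 352 TPM, growing KO libraries to 1300, 1298 and 1325. Dormant KO libraries were thus the highest, growing KO libraries lay between them and all WT libraries, and within each state the hosts did not overlap. As a share of all TPM the members made up at most 0.312%, reached in a dormant KO library. In a bulk sample, fewer cells of a type and less RNA per cell cannot be told apart.

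**Figure D1:**
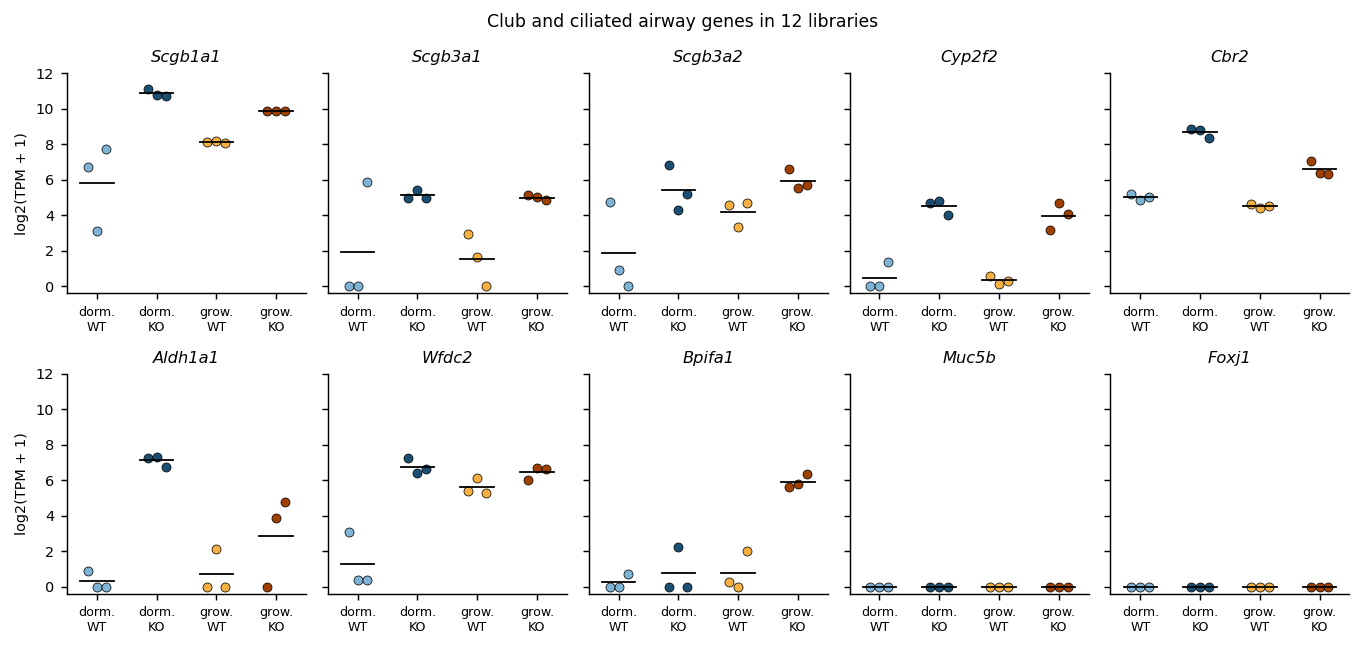
Level of each of the 10 genes as log2(TPM + 1), with 1 point per library in 4 groups of 3 (replicates 1 to 3 from left to right) and a line at the group mean. Muc5b and Foxj1 sit at 0 throughout, Bpifa1 is high in growing KO alone, and Cbr2 and Aldh1a1 are highest in dormant KO.

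Among the secretoglobins, small secreted proteins of the airway lining, Scgb1a1 (the classical club cell marker, also known as CC10) carried most of this signal. Scgb1a1 (ENSMUSG00000024653.2, chr19:9083636-9087958, minus strand, GRCm38) measured 104, 7.57 and 208 TPM in dormant WT libraries, compared with 2176, 1752 and 1694 TPM in dormant KO. Growing WT libraries had 279.8, 290.4 and 264 TPM, against 919.8, 947 and 947 TPM in growing KO. The 4 groups did not overlap, in the order dormant KO, growing KO, growing WT, dormant WT. The spread was small in 3 groups (278 ± 13.4 TPM in growing WT and 938 ± 15.7 in growing KO, SD, n = 3) and as large as the mean in dormant WT (106 ± 100.2). Scgb1a1 ranked 52nd, 65th and 85th of all genes in the dormant KO libraries and between 756th and 5276th in dormant WT. It made up 69% to 75.1% of the members' summed TPM in the 9 libraries outside dormant WT, and 59.8%, 20.4% and 69.4% in dormant WT.

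Scgb3a1, a secretoglobin of larger airways, had a single high value among the WT libraries. It was listed at 0 in dormant WT replicates 1 and 2 and at 56.7 TPM in replicate 3, while dormant KO had 30.6, 42.4 and 30.5 TPM. Growing WT had 6.73, 2.14 and 0 TPM, and growing KO 34.0, 31.5 and 27.8 TPM. The growing hosts did not overlap, whereas the dormant hosts did because of that 1 WT library. Scgb3a2, found along the smaller airways, measured 26.1, 0.90 and 0 TPM in dormant WT libraries, compared with 115, 18.4 and 35.6 TPM in dormant KO. Growing WT libraries had 22.9, 9.06 and 25.2 TPM against 97.2, 45.2 and 51.8 TPM in growing KO, and again only the growing hosts were apart.

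The set holds 3 enzymes. Cyp2f2, a cytochrome P450 of club cells that activates naphthalene, measured 0, 0 and 1.57 TPM in dormant WT libraries, compared with 25.0, 26.4 and 15.2 TPM in dormant KO. Growing WT had 0.50, 0.11 and 0.22 TPM and growing KO 7.93, 24.4 and 15.99 TPM. All 6 KO libraries thus lay above all 6 WT libraries.

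Cbr2 is a carbonyl reductase abundant in lung. Dormant libraries had 35.5, 28.3 and 32.3 TPM in WT hosts against 472, 453 and 329 TPM in KO hosts. Growing libraries had 23.8, 20.7 and 21.8 TPM in WT hosts against 130.4, 81.5 and 80.5 TPM in KO hosts. No groups overlapped, and the order dormant KO, growing KO, dormant WT, growing WT differed from that of Scgb1a1 in the places of the WT groups. Aldh1a1, a retinaldehyde dehydrogenase, measured 153, 159 and 105 TPM in dormant KO against 0.82, 0 and 0 TPM in dormant WT. Growing libraries had 0, 3.38 and 0 TPM in WT hosts against 0, 13.5 and 25.9 TPM in KO hosts. Only the dormant KO libraries stood apart for Aldh1a1.

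The other secreted products went separate ways. Wfdc2, a whey acidic protein domain protein of airway secretions also known as HE4, was low in the dormant WT libraries, at 7.32, 0.28 and 0.27 TPM. Dormant KO libraries had 152, 84.3 and 96.6 TPM, and growing libraries had 41.2, 69.6 and 37.5 TPM in WT hosts against 63.7, 102 and 95.8 TPM in KO hosts. The growing hosts overlapped, and so did both KO groups. Bpifa1, the antimicrobial protein SPLUNC1 of the upper airways, was at 47.0, 53.7 and 79.9 TPM in growing KO. Elsewhere Bpifa1 was listed at 0 in 5 of 9 libraries, and the others had 0.64 TPM (dormant WT), 3.71 TPM (dormant KO), 0.21 and 3.02 TPM (growing WT). Muc5b, the gel-forming mucin, and Foxj1 gave no value above 0.

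Comparing the hosts among dormant libraries asked whether these transcripts differed with the loss of Tgfbr2 from host myeloid cells. Of the 10 members, 6 were called higher in dormant KO and 0 lower, where 12.9% of all 13002 genes tested were called higher and 9.39% lower. A gene was called at a limma Benjamini-Hochberg adjusted p of at most 0.05 and a difference of at least 1 on the log2(TPM + 1) scale, a scale that understates changes of low genes. Aldh1a1 rose by 6.82 ± 1.07 (SE, adjusted p 0.000714), Wfdc2 by 5.51 ± 0.67 (adjusted p 0.000122) and Scgb1a1 by 5.03 ± 0.84 (adjusted p 0.00109). The enzymes Cyp2f2 and Cbr2 rose by 4.05 ± 0.59 (adjusted p 0.000434) and 3.65 ± 0.29 (adjusted p 6.6e-06), so that the difference with the smallest error was that of Cbr2. Scgb3a2 rose by 3.55 ± 1.08 (adjusted p 0.0334), although its groups overlapped. Bpifa1 differed by 0.51 ± 0.74 (adjusted p 0.678), a direction that turned to -0.22 under quantile normalization.

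Of these calls, that of Scgb3a2 depended on single libraries and on the settings. Its adjusted p was 0.0795 without dormant WT replicate 2, 0.0945 without dormant WT replicate 3, 0.135 without dormant KO replicate 1 and 0.0741 without dormant KO replicate 3, and it was 0.19 with only the dormant groups in the fit, 0.0867 with no filter and 0.0975 with array weights. Scgb3a1, with a difference of 3.18 ± 1.33 (adjusted p 0.111), was not called with all libraries and was called without dormant WT replicate 3 (5.13, adjusted p 0.000634). Its difference was 2.21 without dormant WT replicate 1 (adjusted p 0.265) or replicate 2 (adjusted p 0.259). The other 5 calls held without each of the 12 libraries in turn. The size of some differences moved, with Scgb1a1 at 3.66 without dormant WT replicate 2 and 5.96 without replicate 3, and Wfdc2 at 6.41 without dormant WT replicate 1. The difference of Scgb3a2 was 4.98 without dormant WT replicate 1, 2.60 without dormant WT replicate 3 and 2.84 without dormant KO replicate 1.

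Markers of other lung cell types were also higher in dormant KO libraries, and their source and their part in the result were not tested. The 12 alveolar type 2 genes summed to between 40547 and 42837 TPM there, against 49.7 to 149 in dormant WT. Of them 9 were called higher, in a comparison where 12.9% of all genes tested were. The 7 mesothelial genes summed to 11608 to 13199 TPM against 0.72 to 75.8, and all 7 were called higher. Endothelial genes were called higher in 9 of 10, fibroblast genes in 7 of 10 and erythroid genes in 4 of 5 tested, among them the globin Hbb-bs (2.32, adjusted p 1.99e-07). Of these genes 4 alveolar type 2, 2 mesothelial, 4 endothelial and 1 fibroblast gene passed the filter only through the dormant KO libraries. Spp1, the osteopontin transcript that is abundant in the other groups, was at 1236 to 1509 TPM in dormant KO against 32482 to 39951 in dormant WT.

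**Figure D2:**
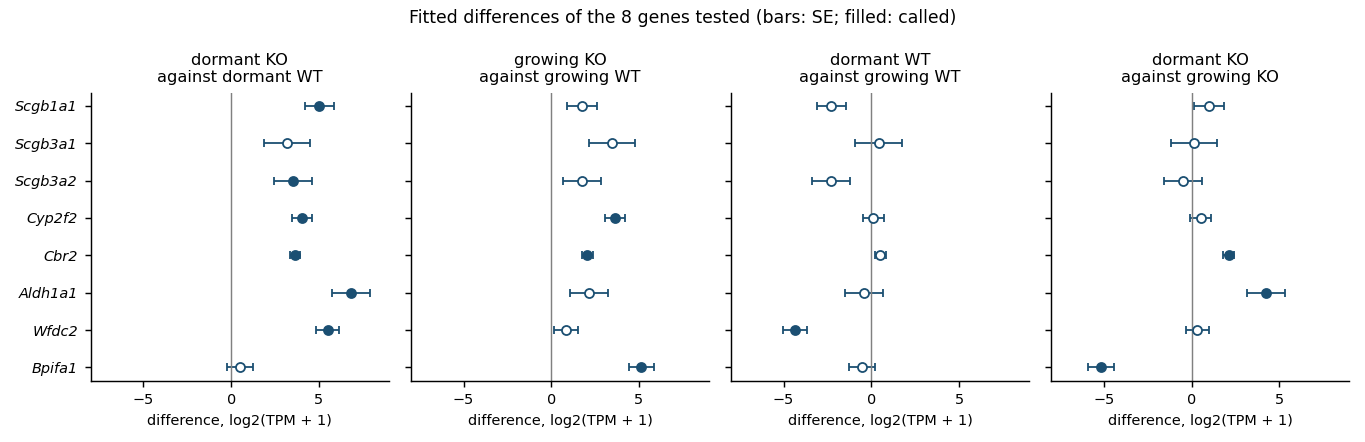
Fitted log2(TPM + 1) differences (limma, points with bars of 1 SE) of the 8 members tested in 4 comparisons of 3 with 3 libraries, filled where called. Cyp2f2 and Cbr2 are called in both host comparisons, Bpifa1 between growing hosts and between states in KO hosts, and Wfdc2 is the single member called between states in WT hosts.

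The same question in growing libraries gave fewer calls. Here 3 of the 10 members were called higher and 0 lower, where 0.715% of all genes tested were called higher. Bpifa1 rose by 5.14 ± 0.74 (adjusted p 0.00538), Cyp2f2 by 3.63 ± 0.59 (adjusted p 0.0111) and Cbr2 by 2.06 ± 0.29 (adjusted p 0.00538). Bpifa1 passed the filter only through the growing KO libraries, where it is high. Its call was lost at a pseudocount of 0.1 (adjusted p 0.0902), and its difference was 5.76 without growing WT replicate 3. That of Cyp2f2 was lost without any 1 of the 3 growing WT libraries or of growing KO replicates 2 and 3, with adjusted p between 0.0522 and 0.0707.

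Scgb1a1, Scgb3a1 and Scgb3a2 also had every growing KO library above every growing WT library, without a call in the fit over all groups. Scgb1a1 differed by 1.75 ± 0.84 (adjusted p 0.723). With only the growing groups in the fit the same difference had an adjusted p of 0.00189, and without dormant WT replicate 2 it had 0.00218. Scgb3a1 differed by 3.47 ± 1.33 (adjusted p 0.482, and 0.0317 without dormant WT replicate 3). Scgb3a2 differed by 1.75 ± 1.08 (adjusted p 0.947), Aldh1a1 by 2.16 ± 1.07 (adjusted p 0.753) and Wfdc2 by 0.83 ± 0.67 (adjusted p 1). The difference of Aldh1a1 was 3.59 without growing KO replicate 1 (adjusted p 0.0895), 1.22 without growing KO replicate 3 and 2.87 without growing WT replicate 2.

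Some markers of other lung cell types were also higher in growing KO. In this comparison 0.715% of all genes tested were called higher. Alveolar type 2 genes summed to 466 to 479 TPM in growing KO against 60.4 to 103 in growing WT (2 of 12 called higher), and mesothelial genes to 271 to 504 against 22.6 to 36.7 (3 of 7). Macrophage genes summed to 67.4 to 94.5 TPM against 13.2 to 22 (1 of 9 tested) and B cell genes to 315 to 346 against 56.8 to 68.9 (2 of 7). Fibroblast genes were called higher in 2 of 10. Other lists had 0 called, namely endothelial (10 tested), alveolar type 1 (10), T and NK cell (7), erythroid (5) and neutrophil (4) genes. Spp1 was at 28980 to 32636 TPM in growing KO and 31819 to 34070 in growing WT, and its difference of -0.09 was not called (adjusted p 1). The part of these transcripts in the members' differences was not tested.

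Within each host, dormant and growing libraries were compared inside 1 library batch. These comparisons share libraries with the host comparisons, so their values are set side by side and not counted as separate evidence. In WT hosts 1 of 10 members was called lower in dormant libraries and 0 higher, where 5.67% of all genes tested were called lower. That member was Wfdc2, which fell by 4.35 ± 0.67 on the log2 scale (adjusted p 0.00255, and 0.0517 with only the WT groups in the fit), with -5.25 without dormant WT replicate 1. Scgb1a1 differed by -2.28 ± 0.84 (adjusted p 0.12) and Scgb3a2 by -2.31 ± 1.08 (adjusted p 0.22). Scgb1a1 was called without dormant WT replicate 3 (-3.22, adjusted p 0.0200) and Scgb3a2 without dormant WT replicate 1 (-3.74, adjusted p 0.00903). Each fall was smaller without the lowest dormant WT library of the gene (7.57 TPM of Scgb1a1, 0 TPM of Scgb3a2). Cbr2 differed by 0.51 ± 0.29 (adjusted p 0.318), with no overlap between the groups.

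In KO hosts, 2 members were called higher in dormant than in growing libraries, against 8.31% of all genes tested, and 1 lower, against 9.48%. Aldh1a1 rose by 4.24 ± 1.07 (adjusted p 0.016) and Cbr2 by 2.11 ± 0.29 (adjusted p 0.000425), whereas Bpifa1, tested only through its growing KO values, fell by 5.15 ± 0.74 (adjusted p 0.000507). The call of Aldh1a1 was lost without dormant KO replicate 1 (adjusted p 0.0547) or replicate 2 (adjusted p 0.0519) and at a pseudocount of 0.1 (adjusted p 0.108). Its difference was 2.80 without growing KO replicate 1 and 5.18 without growing KO replicate 3, and that of Bpifa1 was -5.90 without dormant KO replicate 2. Scgb1a1 differed by 0.99 ± 0.84 (adjusted p 0.471), Cyp2f2 by 0.53 ± 0.59 (adjusted p 0.596) and Wfdc2 by 0.33 ± 0.67 (adjusted p 0.788). For Scgb3a1 (0.13) and Scgb3a2 (-0.51, which became 0.069 under median-ratio scaling) the errors exceeded 1 and the groups overlapped.

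Whether the host difference itself differed between dormant and growing libraries was tested as an interaction, counted as positive where the dormant libraries exceeded the growing ones by more in KO than in WT hosts. It was called higher for 2 members, against 6.18% of all genes tested, and lower for 1, against 3.91%. Wfdc2 had an interaction of 4.68 ± 0.94 (adjusted p 0.00868), Cbr2 of 1.60 ± 0.42 (adjusted p 0.031) and Bpifa1 of -4.63 ± 1.04 (adjusted p 0.015). Wfdc2 had 5.58 without dormant WT replicate 1, and Bpifa1 had -5.38 without dormant KO replicate 2 and -5.25 without growing WT replicate 3. The call of Bpifa1 was in part set by the filter, which it passed only through growing KO. For Cbr2 the adjusted p lay between 0.0594 and 0.0948 without dormant KO replicate 1 or 2, without any 1 growing WT library, or without growing KO replicate 2 or 3. Aldh1a1 (4.66 ± 1.52, adjusted p 0.079) and Scgb1a1 (3.27 ± 1.19, adjusted p 0.114) were not called. Scgb1a1 was called without dormant WT replicate 2 (1.90, adjusted p 0.00396) or replicate 3 (4.21, adjusted p 0.0198), and Aldh1a1 without growing KO replicate 3 (5.60, adjusted p 0.0413). Without growing KO replicate 1, where Aldh1a1 was listed at 0, its interaction was smaller. Calls were also gained for Scgb1a1 with array weights (2.92, adjusted p 0.023) and for Aldh1a1 at a pseudocount of 5 (adjusted p 0.0169) and under median-ratio scaling (adjusted p 0.0364). Cyp2f2 had 0.41 ± 0.84 (adjusted p 0.839), so no difference between its host effects in the 2 states was detected.

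The proportions of the members to each other were not fixed across the groups. Ratios of TPM are given per library as a description, with no test. Per 100 TPM of Scgb1a1, Cbr2 was at 19.4 to 25.9 in dormant KO, 8.5 to 14.2 in growing KO and 7.11 to 8.52 in growing WT. Dormant WT libraries, where Scgb1a1 was lowest, had 34.3, 374 and 15.5, above all dormant KO libraries in 2 of 3. Aldh1a1 was at 6.2 to 9.07 per 100 Scgb1a1 in dormant KO and at 0 to 2.73 in growing KO. Both enzymes were thus higher relative to Scgb1a1 in dormant than in growing KO libraries. Bpifa1 went the other way, with 5.11 to 8.44 per 100 Scgb1a1 in growing KO and 0 to 0.212 in dormant KO. Wfdc2 was at 14.2 to 24 per 100 Scgb1a1 in growing WT, above dormant KO (4.81 to 7), growing KO (6.92 to 10.8) and dormant WT (0.13 to 7.07). Scgb3a1 (1.4 to 2.42 in dormant KO and 2.93 to 3.7 in growing KO) and Cyp2f2 (0.897 to 1.51 and 0.862 to 2.58) kept closer proportions in the KO groups.

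The members also stood in different proportion to the alveolar transcript Sftpc, which codes for surfactant protein C. Sftpc was at 36571 to 39284 TPM in dormant KO, 387 to 423 in growing KO, 46.0 to 84.6 in growing WT and 41.2 to 141 in dormant WT. Scgb1a1 per 100 Sftpc was therefore 4.49 to 5.54 in dormant KO but 224 to 238 in growing KO and 343 to 608 in growing WT. In dormant WT it was 251, 5.36 and 190. Between dormant and growing KO libraries Sftpc differed by 6.53 (adjusted p 8.03e-07), beside 0.99 for Scgb1a1.

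**Figure D3:**
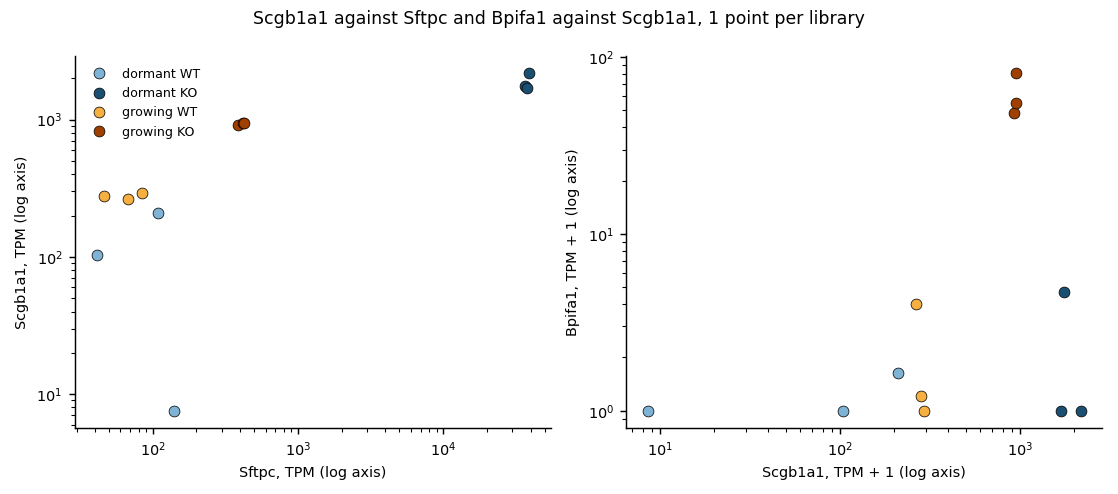
TPM of Scgb1a1 against Sftpc (left) and of Bpifa1 against Scgb1a1, each plus 1 (right), on log axes with 1 point per library colored by group. Dormant KO and growing KO lie within 919.8 to 2176 TPM of Scgb1a1 but far apart in Sftpc, and the 3 growing KO libraries alone have Bpifa1 above 3.71 TPM.

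Levels of members are set side by side because TPM is per length, but the library protocol is uncertain and dependence on transcript length was not tested. In dormant KO the mean order was Scgb1a1 (1874 ± 263 TPM, SD, n = 3), Cbr2 (418 ± 78.1), Aldh1a1 (139 ± 29.4), Wfdc2 (111 ± 36.3), Scgb3a2 (56.3 ± 51.4), Scgb3a1 (34.5 ± 6.88), Cyp2f2 (22.2 ± 6.13) and Bpifa1 (1.24 ± 2.14). Aldh1a1 and Wfdc2 overlapped, as did Wfdc2 with Scgb3a2 and Scgb3a2 with Scgb3a1. In growing KO the order was Scgb1a1, Cbr2 (97.5 ± 28.6 TPM), Wfdc2 (87.1 ± 20.5), Scgb3a2 (64.7 ± 28.3), Bpifa1 (60.2 ± 17.4), Scgb3a1 (31.1 ± 3.14), Cyp2f2 (16.1 ± 8.25) and Aldh1a1 (13.1 ± 12.9). There Cbr2 overlapped with Wfdc2, Wfdc2 with Scgb3a2, Scgb3a2 with Bpifa1, and Cyp2f2 with Aldh1a1.

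Across the 12 libraries, which share the 4 group levels, the log2(TPM + 1) of Scgb1a1 correlated with that of the other members at Pearson's r of 0.837 for Wfdc2, 0.819 for Cyp2f2, 0.75 for Scgb3a1, 0.736 for Cbr2, 0.716 for Aldh1a1, 0.702 for Scgb3a2 and 0.381 for Bpifa1. The transcripts most alike to Scgb1a1 among all tested genes were Rps24 (r 0.954), Rpl14 (0.95), Lyrm2 (0.948), Smarca2 (0.939) and Mrpl54 (0.936), and no member was among these 5. For Foxj1 no such value exists, since it was listed at 0.

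Of 17 further club secretory genes, 9 did not pass the filter. Of the 8 tested, 7 were called higher and 1 lower between dormant hosts (12.9% and 9.39% of all genes tested), but 5 of them (Scgb1c1, Sec14l3, Lypd2, Cldn10 and Krt15) passed only through the dormant KO libraries, so that this count was in part set by the filter. Between dormant and growing KO libraries 3 were called higher and 1 lower (8.31% and 9.48% of all genes). The 3 called higher were Lypd2, Cldn10 and Scgb1c1, which entered through dormant KO, so nothing is read from this count. Sec14l3 (1.79, adjusted p 0.151), Hp (1.62, adjusted p 0.209) and Krt15 (1.61, adjusted p 0.0602) were not called there. Lypd2 measured 133, 86.6 and 77.6 TPM in dormant KO but was listed at 0 in dormant WT and growing KO. Cldn10, a tight junction claudin, was at 62.5, 59.7 and 77.0 TPM and the secretoglobin Scgb1c1 at 37.4, 31.4 and 50.6 TPM, both listed at 0 in all WT libraries and at most at 2.69 TPM in growing KO. The gene called lower was the copper carrier Cp, which fell by 2.44 (adjusted p 0.00145).

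In growing libraries 1 of the 8 was called, and it was higher (0.715% of all genes). Reg3g, an antimicrobial lectin, measured 29.2, 41.1 and 14.4 TPM in growing KO against 0, 0 and 0.60 TPM in growing WT (difference 4.52, adjusted p 0.0144). Dormant KO libraries had 37.4, 51.5 and 44.3 TPM of Reg3g, and no difference between the KO groups was detected (0.74, adjusted p 0.564), unlike for Bpifa1.

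Among 16 genes of xenobiotic metabolism, 12 were tested, of which 8 were called higher and 2 lower in dormant KO (12.9% and 9.39% of all genes tested) and 0 either way in growing KO (0.715% of all genes higher; limma, with 3 at an unadjusted p under 0.05). The glutathione transferase Gsta3 was at 331, 411 and 330.3 TPM in dormant KO, against 0, 36.7 and 0 in dormant WT and 0.31, 2.55 and 9.38 in growing KO. Cyp2b10 measured 72.6, 47.4 and 23.2 TPM in dormant KO but was listed at 0 in all WT libraries. Cyp2b10 and Aox3 passed the filter only through dormant KO, so their calls followed in part from it. Aldh3a1 went the other way, with 15.2, 8.16 and 0.02 TPM in dormant KO and between 163 and 343 TPM in the other 9 libraries (a fall by 5.61 between dormant hosts, adjusted p 0.000302). Aldh3a1 was thus low in dormant KO alone, where Cyp2f2 was at its highest mean.

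Few relatives of the members passed the filter. Of 69 secretoglobin genes 59 were listed at 0 in every library, and 4 passed the filter (the 3 members and Scgb1c1). Of 14 genes of the Bpif family only Bpifa1 passed, and its neighbor Bpifb1, another secreted airway protein, reached at most 2.42 TPM. Among 6 tested Wfdc genes, Wfdc21 was at 77.7, 42.1 and 68.9 TPM and Wfdc1 at 33.8, 14.9 and 39.1 TPM in dormant KO, both listed at 0 in dormant WT. Wfdc17 was called higher in dormant KO (4684, 3975 and 4603 TPM against 388, 903 and 1163) and in growing KO (194, 229 and 171 TPM against 13.3, 16.7 and 3.33). Wfdc13 measured 12.6 to 23.4 TPM in growing WT and 6.10 to 24.18 in growing KO but was listed at 0 in all dormant libraries, and Wfdc3 was not called between hosts. Aldh1a2, another retinaldehyde dehydrogenase, measured 146, 167 and 146 TPM in dormant KO and at most 3.71 TPM elsewhere, whereas Aldh1a3 was between 1.04 and 13.6 TPM in all libraries and was not called.

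Ciliated cell genes were detected in part, although Foxj1 was not. Of 40 ciliated names besides Foxj1, 39 were found in the table and 15 were tested. Of these, 5 were called higher and 0 lower in dormant KO (12.9% and 9.39% of all genes tested), and 1 higher and 0 lower in growing KO (0.715% of all genes higher). In this list Dynlrb2 passed the filter only through the dormant KO libraries, and another 5 tested genes would have failed it without them but also needed libraries of another group. Dynlrb2, a dynein light chain, measured 34.5, 85.0 and 89.7 TPM in dormant KO against 8.98, 33.9 and 0.24 TPM in growing KO, with 0 listed for all WT libraries (adjusted p 0.344 between growing hosts). Fam183b, a cilium protein, was likewise listed at 0 in all WT libraries, with 27.3, 28.1 and 87.2 TPM in dormant KO beside 39.4, 21.9 and 18.2 TPM in growing KO (adjusted p 4.82e-05 and 0.002). It was the ciliated gene called in both host comparisons. Ccdc153 measured 38.7, 25.6 and 27.4 TPM in dormant KO but was listed at 0 in dormant WT (adjusted p 0.00106), and Tmem212 rose by 4.06 (adjusted p 0.000877).

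Several long axonemal genes were near 0. Dnah5, Dnah11 and Hydin did not exceed 0.14 TPM in any dormant KO library, and the early regulators Mcidas, Gmnc and Myb were listed at 0 in both KO groups. The 7 ciliated genes at 1 TPM or more in all dormant KO libraries had a median longest transcript of 1087 bases (527 to 5968), and the 23 genes under 1 TPM in all of them, Foxj1 included, had 3606 bases (1447 to 15783). The longest transcript of Muc5b has 14964 bases and that of Foxj1 2623. Among other airway lists, Muc5ac, Spdef, Foxa3 and Tff3 of goblet cells were listed at 0 throughout, and Creb3l1, the single goblet gene that passed the filter, did so only through dormant KO (4.79, 2.33 and 2.53 TPM, against at most 0.73 elsewhere). Of 6 basal cell genes only Krt17 passed the filter, and it was not called in either host comparison (limma, adjusted p 1 and 0.961). The 6 genes summed to 5.48 to 14.5 TPM in dormant KO, overlapping dormant WT (0 to 12.8), and to at most 4.59 TPM in growing libraries. The highest dormant WT sum came from Trp63 alone, at 12.76 TPM in 1 library. Krt14 (5.45, 0.15 and 3.49 TPM) and Krt6a (5.18, 14.10 and 0.40 TPM) were above 0 in dormant KO alone.

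**Figure D4:**
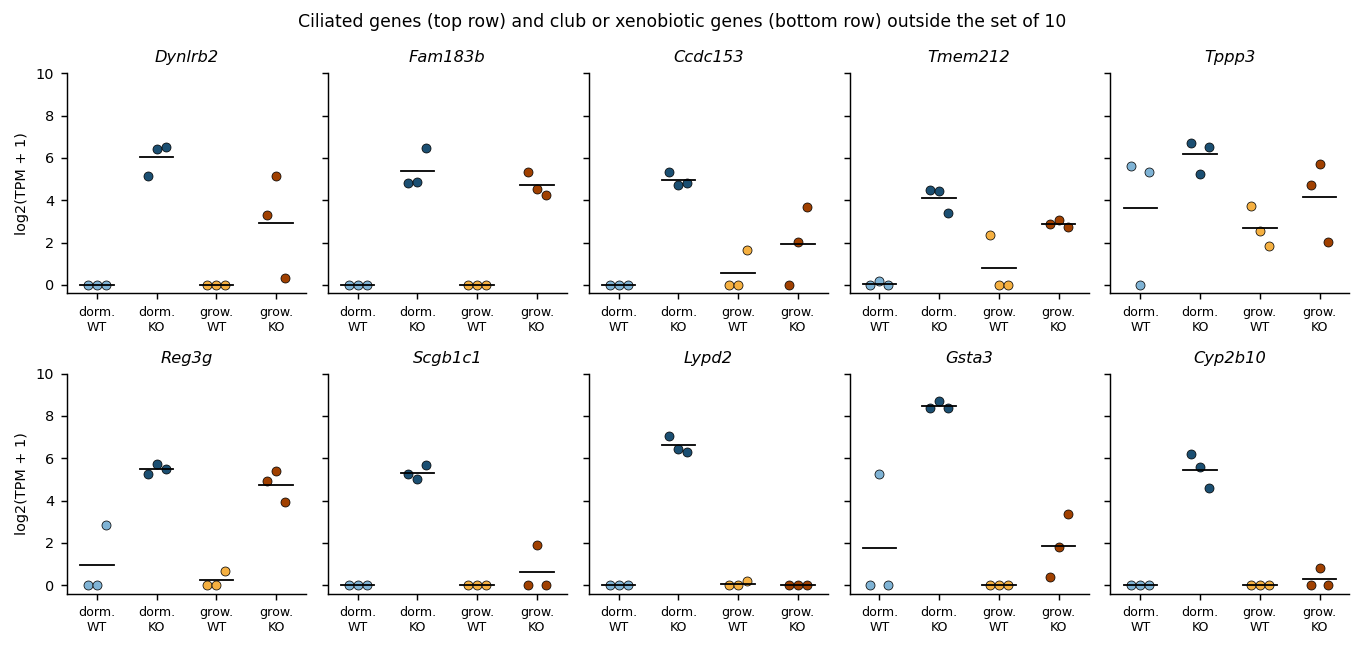
Levels as log2(TPM + 1) of 5 ciliated genes (top row) and 5 club or xenobiotic genes (bottom row), with 1 point per library and a line at the group mean. Fam183b and Reg3g are raised in both KO groups, whereas Lypd2, Scgb1c1, Gsta3 and Cyp2b10 are high in dormant KO and at most 9.38 TPM in growing KO.

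Of the upstream factors, Nkx2-1 measured 1.82, 5.05 and 10.8 TPM in dormant KO against 0, 0 and 1.20 TPM in growing KO, with 0 listed for all WT libraries, and it passed the filter only through dormant KO. Foxa1 reached at most 1.91 TPM and Foxa2 at most 0.02 TPM. In the growing KO libraries with Nkx2-1 listed at 0, Scgb1a1 was at 919.8 and 947 TPM. Among general epithelial genes, 6 of 9 tested were called higher in dormant KO (12.9% of all genes) and 1 lower (9.39% of all genes; Krt8, which fell by 1.62, adjusted p 0.00541), and 4 of the 9 passed the filter only through dormant KO. Krt19, which is also counted among the mesothelial genes, measured 267, 418 and 252 TPM in dormant KO against at most 14.2 TPM elsewhere. Krt7 was at 34.2, 61.5 and 29.6 TPM and Cldn7 at 15.1, 20.7 and 6.72 TPM in dormant KO, both listed at 0 in dormant WT. Cldn7 was also listed at 0 in all growing libraries, where Scgb1a1 was between 264 and 947 TPM.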

How the data were processed

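Gene levels were measured by RNA-seq in 12 libraries. According to the submitters' notes, the authors used bcl2fastq 2.20, cutadapt 1.18, STAR 2.5.2b and RSEM 1.3.3 on mm10, and the deposited values are TPM. The labels name a TruSeq kit and the methods Smart-seq, so the library protocol is uncertain. RSEM divides reads among similar sequences by an estimate, which makes levels of close paralogs uncertain, and use of strand was not stated. TPM holds no depth, so precision is the spread between 3 libraries. The methods describe a small aliquot of sorted cells as the input, counted by the flow sorter. How far so small an input shaped the undetected genes and the isolated high values of single libraries was not tested. Another 30 per-sample columns could not be mapped to a labeled sample and were not used, 6 of them named as WT of batch 2.

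Values were transformed to log2(TPM + 1). Genes with at least 1 TPM in at least 3 libraries (13002) were fitted in R 4.3.3 with limma 3.58.1 (eBayes with trend, 4 group means, 8 residual degrees of freedom, two-sided), with Benjamini-Hochberg adjustment over all of them. The count model of the authors could not be applied to TPM. An exact permutation test of 3 against 3 cannot go below p = 0.1 and was not used. Where all libraries of a group are at 0, no fold is given. The script was tested on simulated data.

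The members, the gene lists and the comparisons were chosen with earlier results of these data known. Named genes were all members, up to 3 called, non-overlapping genes per airway list and host comparison, tested relatives of the members, the 5 genes most alike to Scgb1a1, and Sftpc, Spp1 and Hbb-bs. Bpifb1, Cp, Sec14l3, Hp, Krt15, Aox3, Krt17, Krt8, Epcam, Tmem212, Foxa1 and Foxa2 were chosen after their values were seen. So were Trp63, Krt14, Krt6a and the ciliated and goblet genes named for values at or near 0. Gene coordinates and transcript lengths are from GENCODE M21 (GRCm38), and promoters are from RefSeq. Alternatives were other pseudocounts, filters and scalings, array weights, a replicate block, fits without the groups outside a comparison, and leaving out each library.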

Additional observations from a re-analysis of the deposited data

Results flagged for a closer look

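For 3 members the interaction test of the limma fit over 12 libraries called a difference between hosts in how dormant and growing libraries differed. For Cbr2 the difference in KO hosts exceeded that in WT hosts by 1.60 on the log2(TPM + 1) scale (adjusted p 0.031), for Wfdc2 by 4.68 (adjusted p 0.00868), and for Bpifa1 it was -4.63 (adjusted p 0.015). Bpifa1 passed the filter on low values only through growing KO, the group where it is high, so its call was in part set by that filter. The call was lost in 8 of 20 alternatives for Cbr2 and in 2 of 20 for Bpifa1. Host and library batch cannot be told apart in this test. For Cbr2 the dormant level was above the growing level in every library of either host. For Wfdc2 the dormant WT libraries (0.27 to 7.32 TPM) were below all others. For Bpifa1 the growing KO libraries (47.0 to 79.9 TPM) were above all others.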

How the results depend on the processing

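Under alternatives other than leaving out a library, 329 values of single members kept direction and call, 9 lost and 6 gained a call, and 8 turned in sign, none of them called in the main analysis. With the replicate block the calls among members were 6, 3, 1, 3 and 3 in the order of the report, as without it. Same-numbered libraries did not deviate together (r between -0.014 and 0.021), which cannot show whether they came from the same mice. Array weights gave 5 calls between growing hosts (3 in the main analysis), adding Scgb1a1 (adjusted p 0.00296) and Scgb3a1 (adjusted p 0.019). Over all 13002 genes tested, calls in that comparison rose from 127 to 516. Between states in WT hosts, 0 member calls were left with only those groups and 1 to 2 without 1 library. Median-ratio scaling moved the median of all genes between dormant hosts from 0.17 to 0.50. Values that turned at a pseudocount of 0.1 were Scgb3a1 -0.48 and Cyp2f2 -0.42 between states in WT hosts and Scgb3a1 0.61 in the interaction. Under median-ratio scaling they were Scgb3a1 0.22 in the interaction and Scgb3a2 0.069 between states in KO hosts. Under quantile normalization they were Aldh1a1 0.13 and Bpifa1 0.21 between states in WT hosts and Bpifa1 -0.22 between dormant hosts. Without 1 library, values ran from -0.24 to 0.88 for Bpifa1 between dormant hosts. Between states in WT hosts they ran from -1.53 to 1.39 for Scgb3a1, -0.34 to 0.34 for Cyp2f2, -0.78 to 0.29 for Aldh1a1 and -0.90 to 0.10 for Bpifa1. Between states in KO hosts they ran from -0.021 to 0.21 for Scgb3a1 and -1.22 to 0.068 for Scgb3a2, and in the interaction from -1.26 to 1.67 for Scgb3a1. The cause was not tested. At a pseudocount of 0.1 the interaction of Bpifa1 was not called (adjusted p 0.131). With array weights the interactions of Cbr2 (adjusted p 0.0668) and Bpifa1 (adjusted p 0.062) were not called, nor was Scgb3a2 between dormant hosts (adjusted p 0.0975).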
